A study of Mus musculus with 2 samples.

Results

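Omp, Gfy, Stoml3, S100a5 and Slc17a6 are genes used to recognise mature olfactory sensory neurons, the odour-detecting nerve cells of the nose. The 5 genes, of 21755 protein-coding genes on chromosomes 1 to 19 and X, were chosen by name from GENCODE release 21 of the mouse annotation, not from their boundary values. Earlier results of these data were known when the choice was made. The sample was olfactory sensory neurons of adult mice of strain 129P2/OlaHsd and mixed sex, isolated from olfactory epithelium with a cell sorter by way of the OMP-GFP reporter, without treatment. In situ Hi-C, which fixes chromatin, cuts it with DpnII and ligates DNA ends that lie together in the nucleus, was run on 2 biological replicates of this 1 group, from 3000000 and 1500000 cells. The authors pooled both into 1 map on GRCm38, so each value below comes from 1 list of 8058 boundaries and carries no spread between replicates and no test. The labels do not state where the GFP reporter sits. The Omp locus was read against the reference genome, and the boundary list holds no expression values against which the identity of the sorted cells could be checked.

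A boundary is a place where contacts between the chromatin on its left and right are depleted, and the stretch between adjacent boundaries is called a domain. Within a domain, promoters and enhancers meet more often than across its borders, and the protein CTCF, which halts the loop-forming cohesin complex, sits at many borders. Omp encodes the olfactory marker protein, an abundant cytoplasmic protein that shapes the speed of the odour response. Gfy encodes a Golgi protein that helps the odorant-signalling adenylyl cyclase reach the cilia, and Stoml3 encodes a stomatin-like membrane protein of the cilia. S100a5 encodes a calcium-binding protein whose level in these neurons follows their activity, and Slc17a6 encodes VGLUT2, the transporter that loads glutamate into synaptic vesicles.

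None of the 5 marker genes was cut by a boundary, and for 1 of them, Slc17a6, a boundary lay at most 20 kb from the transcription start site (TSS). Distances are between 5 kb bins, and the TSS is the 5′ end of the gene record. Of all coding genes, 21.2% had a boundary that near and 15.9% had one in the gene body, so counts of 1 of 5 and 0 of 5 set the markers apart from neither background. The median distance from TSS to nearest boundary was 45 kb for the markers and 60 kb for all coding genes. The order was Slc17a6 at 20 kb, Gfy at 40 kb, Stoml3 at 45 kb, Omp at 55 kb and S100a5 at 135 kb. Gfy and Stoml3 differed by 1 bin, the resolution of the list. S100a5 stood apart, with 83.5% of coding genes at or below its distance, while for the other 4 this share ran from 21.2% for Slc17a6 to 48.6% for Omp.

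**Figure D1:**
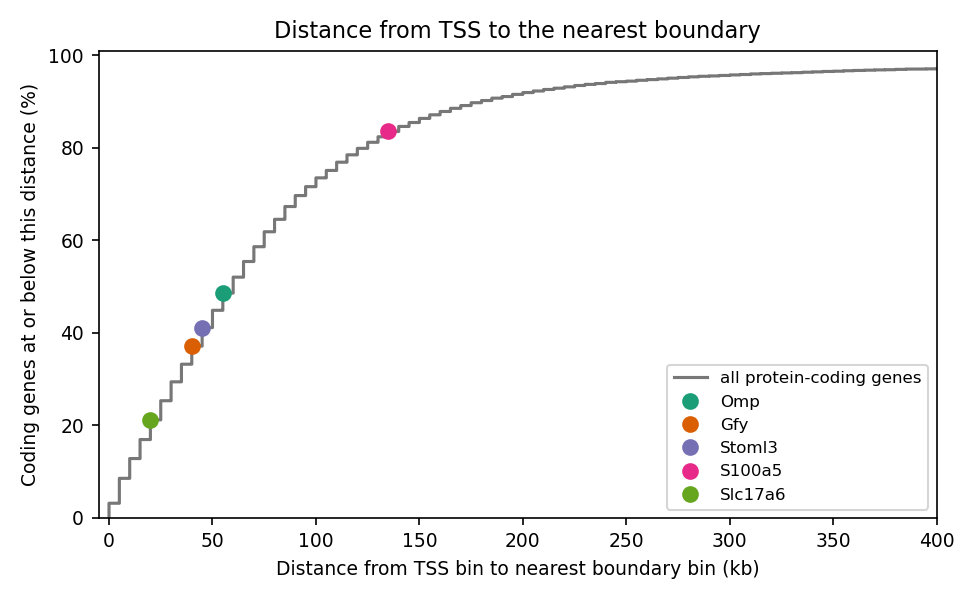
Distance from the TSS bin to the nearest boundary bin (x axis, kb) against the share of all protein-coding genes at or below that distance (y axis, percent; grey line), with the 5 marker genes as coloured points. Slc17a6 lies at 20 kb, Gfy, Stoml3 and Omp between 40 and 55 kb, and S100a5 at 135 kb.

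Slc17a6 lay beside the second strongest of the markers' 10 flanking boundaries and had a domain with no other coding start. The gene occupies 51622006 to 51671119 on chromosome 7, on the plus strand. The boundary on its 5′ side, at 51600001 to 51605000, had a strength of 2.68 in the authors' score, which has no stated scale, and ranked 43 of 8058. It overlapped no annotated gene and lay in the 23296 bp gap between the end of Ano5, a gene of the anoctamin membrane protein family, and Slc17a6. The boundary on the 3′ side, 195 kb from the TSS at 51815001 to 51820000, was also classed Strong (0.711, rank 2895) and also overlapped no gene. The domain spanned 210 kb. Slc17a6 was its 1 coding gene. Domains with 1 coding start made up 24.9% of all, while 9.95% of coding genes lay in a domain with at most 1. Coding gene bodies covered 23.4% of it. The next coding gene downstream, Gas2, which encodes a cytoskeletal protein, began 240.0 kb from the TSS and on the far side of a boundary.

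An exact match to the CTCF core consensus lay between the strong boundary and the Slc17a6 TSS, 10 kb from the boundary bin and 7.41 kb upstream of the TSS. It was on the plus strand and pointed into the domain. It is printed here because it was the only exact match within 20 kb of either Slc17a6 boundary, with 8 bases of reference sequence on each side and the core in capitals (chr7:51614578-51614607, GRCm38, plus strand).
Slc17a6 5′ side: ttctattgCCACTAGAGGGCAGcagctaga
A match describes letters of the reference genome, and CTCF binding was not measured.

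With boundaries of both classes counted, Gfy had the smallest and most gene-dense domain of the 5 markers. This order rests on a Weak boundary on the 3′ side, since between Strong boundaries the Gfy domain was 715 kb, the largest of the 5. The gene lies on the minus strand of chromosome 7 from 45176349 to 45179569. Its domain spanned 90 kb, and 1.34% of all domains were of that size or smaller. It held 10 coding TSSs. That many or more were in 4.46% of domains, which together held 27.7% of coding genes. The boundary on the 5′ side, 40 kb from the TSS at 45215001 to 45220000, was Strong (1.02, rank 1719) and covered the start of Tead2, a transcription factor gene of the Hippo pathway. The 3′ boundary, at 55 kb and 45120001 to 45125000, was Weak (0.235, rank 7228). Gfy thus shared its domain with 9 other coding starts. Among them was Slc17a7, which encodes VGLUT1, another vesicular glutamate transporter and a paralogue of Slc17a6. Slc17a7 runs on the opposite strand toward Gfy, and 206 bp separate the ends of the 2 genes. On the other side, the start of Pth2, a neuropeptide gene, lay 1.43 kb from the Gfy TSS and pointed away from it.

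The RefSeq promoter table, which runs from 250 bases before the start to 50 after it on GRCm38.p6, held 4 of the 5 markers and had no entry for Omp. Slc17a6 had 2 entries. The table was searched on both strands for CCCNNGGG, the core bound by the early B-cell factors (Ebf), which regulate olfactory neuron genes, and for a longer form with T before and A after the core. Gfy held 1 match to the core, which was also a match to the longer form, starting 41 bases before the RefSeq start. Of 32851 promoters, 13.7% held the core and 0.904% the longer form. The promoters of Stoml3, S100a5 and Slc17a6 held neither. The Gfy promoter is printed because it carries the match, in capitals (chr7:45179548-45179847, minus strand).
Gfy promoter: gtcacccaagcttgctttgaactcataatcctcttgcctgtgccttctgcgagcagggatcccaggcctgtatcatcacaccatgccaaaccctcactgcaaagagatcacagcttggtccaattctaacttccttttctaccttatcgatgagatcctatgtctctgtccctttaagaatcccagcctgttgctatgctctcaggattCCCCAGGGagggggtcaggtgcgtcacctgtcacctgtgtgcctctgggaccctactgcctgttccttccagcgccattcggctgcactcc
TAATTA, a homeodomain core of the kind bound by Lhx2, was in 1 of the 2 Slc17a6 promoters, in none of the Gfy, Stoml3 and S100a5 promoters, and in 5.29% of all. CpG dinucleotides numbered 5 in the Gfy promoter, 4 in that of Stoml3 and 3 in that of S100a5. Slc17a6 had 8 in its first promoter and 3 in its second, and the median over all promoters was 7. Among the markers with an entry, CpG numbers above that median were therefore found in the first Slc17a6 promoter alone.

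Stoml3 lay between a Strong boundary and one of the faintest in the list. It lies on the plus strand of chromosome 3 from 53488653 to 53508502. The boundary 45 kb upstream, at 53440001 to 53445000, was Strong (1.55, rank 671) and overlapped no annotated gene. Its nearest coding start, 20 kb away, belonged to Nhlrc3. The boundary 245 kb downstream, at 53730001 to 53735000, was Weak, with a strength of 0.209 and a rank of 7820, close to the lower limit of the list at 0.2. It covered an exon of the long intergenic RNA gene Gm30735. The domain of 285 kb held 4 coding starts, and the neighbours of Stoml3 were Proser1 upstream, 6897 bp away, and Frem2, an extracellular matrix protein gene that runs toward it and ends 5435 bp from it.

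The second exact CTCF core match at a marker boundary lay 5 kb from the weak downstream boundary of Stoml3, on its outer side. It was on the plus strand and pointed out of the domain (chr3:53735341-53735370, plus strand, core in capitals).
Stoml3 3′ side: cctttctcCCACCAGATGGCACtatgtctt
Thus 2 of the 10 flanking boundaries had an exact match within 20 kb, against 27.2% of the boundaries flanking coding genes and 21.9% of all boundaries, a count near the background. The 2 sites stood at the boundaries ranked 43 and 7820, so within this set a match went with no particular strength.

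Omp lay between 2 boundaries of middling strength. The gene, on the minus strand of chromosome 7 from 98143359 to 98145502, sits inside an intron of Capn5, a calpain protease gene on the same strand. The 5′ boundary, 55 kb away at 98200001 to 98205000, was Weak (0.470, rank 4303) and overlapped no gene. The nearest coding start to it, 5 kb away, was that of the glycosyltransferase gene B3gnt6. The 3′ boundary, 245 kb away at 97900001 to 97905000, was just over the class limit of 0.5 (Strong, 0.547, rank 3777). It covered coding and untranslated exon sequence of Pak1, a kinase gene, and lay 15 kb from the start of Gdpd4. Of all boundaries, 46.6% were at or below the strength of the 5′ one and 53.1% at or below that of the 3′ one, so both lay near the list's median of 0.509. The domain of 295 kb held 5 coding starts, and coding genes covered 91.3% of it, the highest share of the 5 marker domains. Myo7a, an unconventional myosin gene, had the nearest downstream start, at 26.0 kb.

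S100a5 lay deep in a domain that held most of its gene family. It occupies 90608523 to 90611780 on the plus strand of chromosome 3, in a domain of 315 kb with 18 coding starts. That number was reached or passed in 1.08% of domains, which held 11.8% of coding genes. Of the 17 S100 genes examined, 12 had their start in this domain, S100a5 included. S100a10 and S100a11 lay elsewhere on chromosome 3 and the other 3 on other chromosomes. The neighbours on both sides were family members, S100a4 ending 2477 bp upstream and S100a6 starting 1101 bp downstream of the S100a5 gene body. No boundary separated the 12 genes.

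Both borders of the S100a5 domain were Strong. The 3′ border, 185 kb from the S100a5 TSS at 90790001 to 90795000, had a strength of 2.73, ranked 38 of 8058 and overlapped no annotated gene. The nearest coding start, that of Gm5849, was 15 kb away. The 5′ border, 135 kb away at 90470001 to 90475000, had a strength of 0.633 (rank 3280). It covered an unprocessed pseudogene, Gm43595, and lay 5 kb from the start of Npr1, a natriuretic peptide receptor gene. This 3′ border was the strongest of the markers' 10 flanking boundaries. Between it and the last S100 gene, S100a9, a minus-strand gene that starts at 90695721, lay the coding genes Pglyrp4 and Gm5849.

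**Figure D2:**
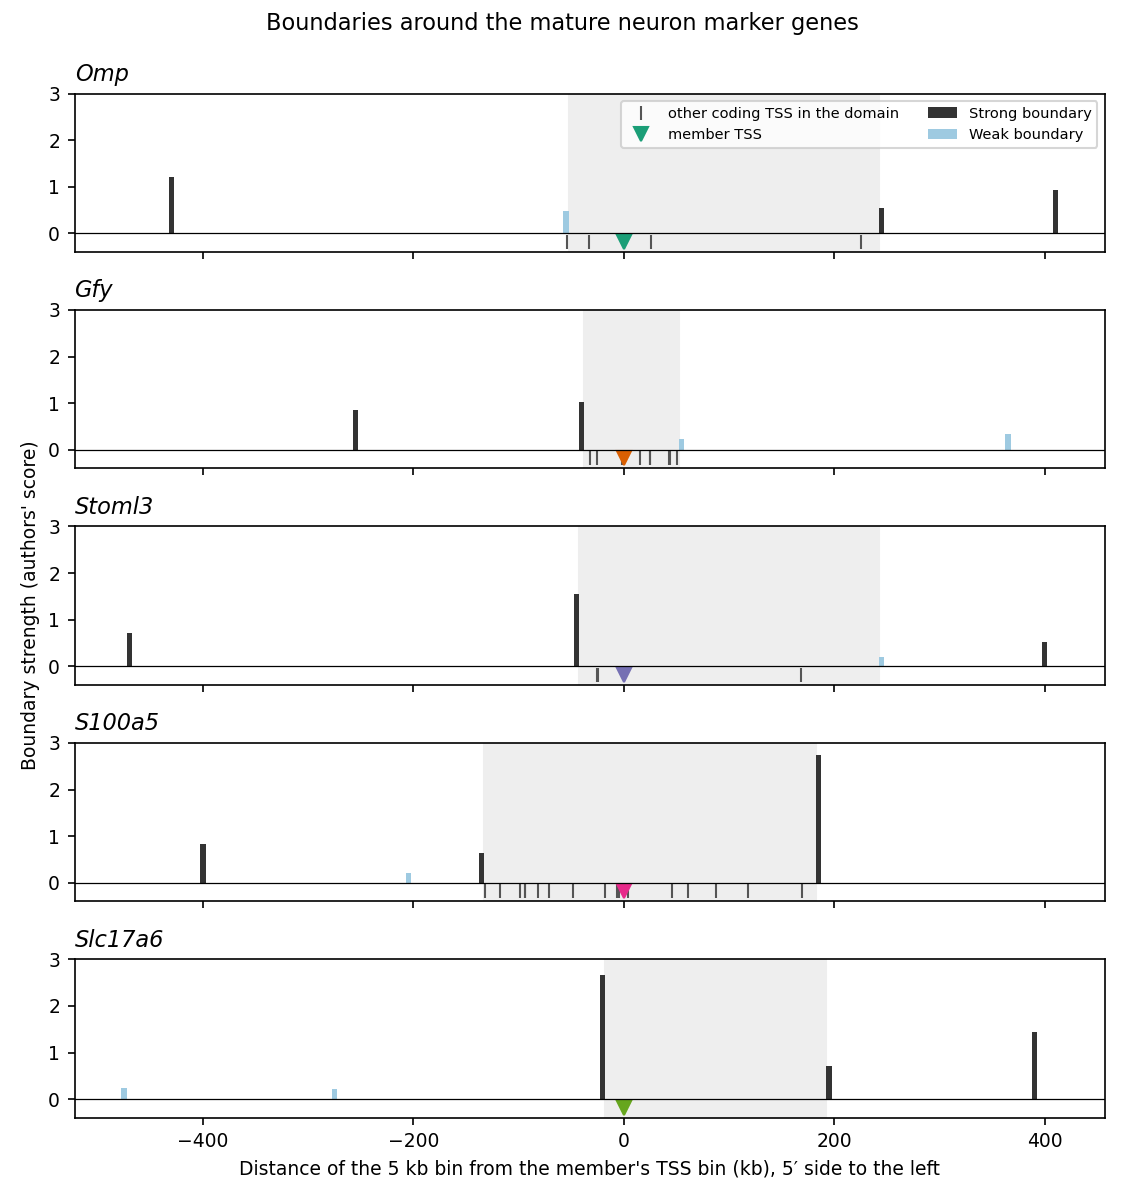
Boundaries within 500 kb of each marker gene's TSS (x axis, kb, with the gene's 5′ side on the left), drawn as bars whose height is the authors' boundary strength (y axis), dark for Strong and light for Weak. Grey shading marks the domain, coloured triangles the marker's TSS and ticks the other coding TSSs in the domain, of which Slc17a6 had 0 and S100a5 had 17.

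In all 5 marker genes the nearer of the flanking boundaries was the one on the 5′ side of the TSS. The 5′ and 3′ distances were 55 and 245 kb for Omp, 40 and 55 kb for Gfy, 45 and 245 kb for Stoml3, 135 and 185 kb for S100a5, and 20 and 195 kb for Slc17a6. The 5′ side was nearer in 51.7% of all coding genes with a boundary on each side. This measure was chosen after the values were seen and has no test. When only Strong boundaries were kept, the count was 4 of 5, because Omp then had its nearest boundary on the 3′ side, at 245 kb against 430 kb. It was also 4 of 5 with the top 25% of strengths, where the 5′ side was farther for S100a5. The stronger of the flanking boundaries lay on the 5′ side in 3 of the 5 markers (Gfy, Stoml3 and Slc17a6) and in 51.5% of coding genes.

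Of the markers' 10 flanking boundaries, 7 were Strong. This share was 63% over the flanking boundaries of all coding genes, each counted once per gene, and 50.8% over the whole list. Their median strength was 0.672, close to the 0.655 of boundaries flanking coding genes and above the 0.509 of the list. The nearest boundary was Strong for 4 of the 5 markers, Omp being the exception, and for 64.1% of coding genes. Of these 10, 8 had a coding start at most 20 kb away, as did 64.7% of the boundaries flanking coding genes and 37.6% of all boundaries. The 2 without one were the 3′ boundaries of Stoml3 and Slc17a6.

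**Figure D3:**
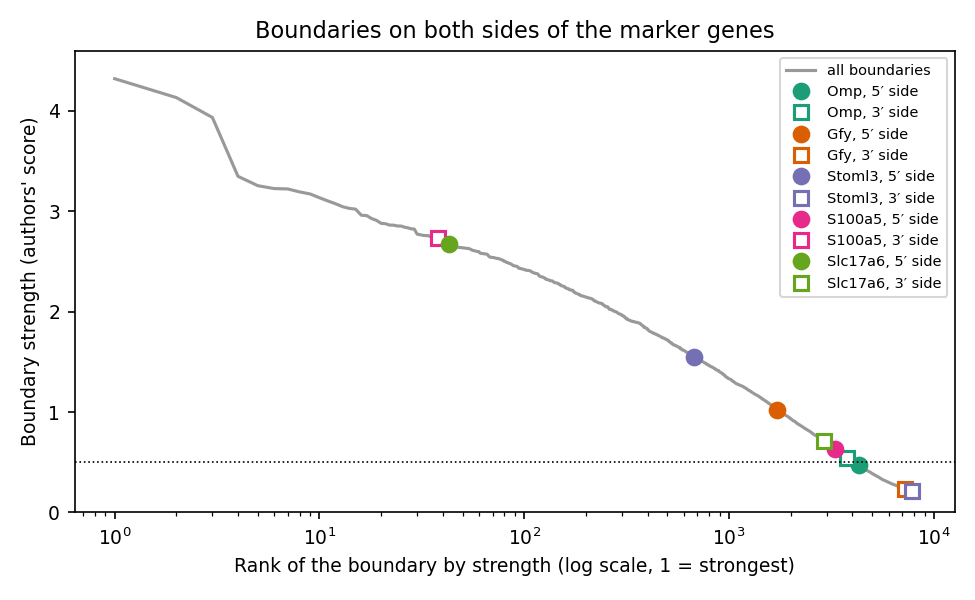
Boundary strength in the authors' score (y axis) against rank (x axis, log scale, 1 the strongest) for all 8058 boundaries (grey line) and for the boundaries on the 5′ (filled circles) and 3′ side (open squares) of each marker gene, with the class limit of 0.5 dotted. The 3′ boundary of S100a5 (rank 38) and the 5′ boundary of Slc17a6 (rank 43) stand far above the other 8, whose strengths run from 0.209 to 1.55.

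The 5 domains ranged from 90 to 315 kb with a median of 285 kb, against 255 kb for all domains and 270 kb for those holding the TSSs of coding genes. Apart from Gfy they lay between 210 and 315 kb, while the number of coding starts in the 5 domains ran from 1 to 18. GC content was 52.7% in the domain of Gfy, with 99.6% of domains at or below it, 46.6% in that of Omp, 44.0% in that of S100a5, 43.8% in that of Stoml3 and 40.0% in that of Slc17a6. The median over domains was 42.2%, so the Slc17a6 domain alone lay below it. DpnII sites, which set how finely the map could be cut, numbered 2.30 to 2.86 per kb in the 5 domains, with a median of 2.46 over all domains. The quartiles over all domains were 2.35 and 2.60. The domain of Stoml3 (2.30) lay below them, and those of Gfy (2.70) and S100a5 (2.86) above. No undetermined bases lay in any of the 5.

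**Figure D4:**
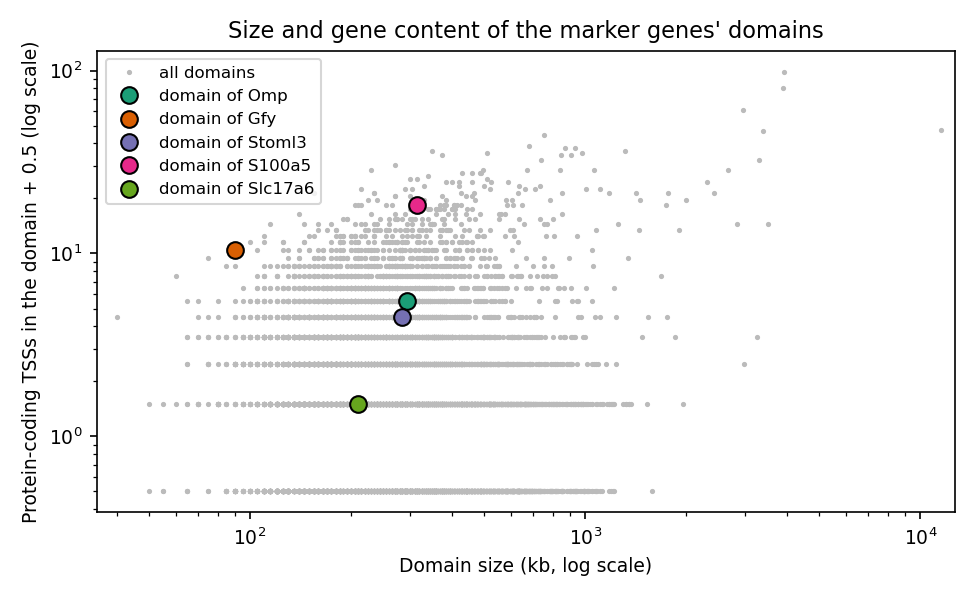
Domain size (x axis, kb, log scale) against the number of protein-coding TSSs in the domain plus 0.5 (y axis, log scale) for all domains (grey, those with assembly gaps included) and those of the 5 marker genes (coloured). Gfy has a domain of 90 kb with 10 coding starts, S100a5 one of 315 kb with 18, and Slc17a6 one of 210 kb with 1.

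Olfactory receptor genes, which these neurons express 1 at a time, lay outside all 5 domains. The nearest one to Stoml3 was the pseudogene Olfr1398-ps1 at 1.24 Mb, with 3 boundaries between, and the nearest to Omp was Olfr520 at 1.58 Mb, with 7 between. For S100a5 it was Olfr1402, at 6.81 Mb and past 22 boundaries. Gfy and Slc17a6 were 38.6 and 33.2 Mb from the nearest receptor gene on their chromosome. The share of all coding genes in domains without a receptor gene was not counted, so these positions do not set the markers apart from other genes.

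Other genes of the mature neuron had a boundary at most 20 kb from the TSS in 4 of 19 cases (21.1%), near the share of all coding genes and that of the 5 markers. The strongest of these belonged to Gnal, which encodes the G protein that couples odorant receptors to the cyclase (2.31, 15 kb away), Ncam2, an adhesion molecule gene (1.53, 10 kb away), and Gng13, a G protein gamma subunit gene (1.03, 5 kb away). Their median distance was 45 kb, the same as for the markers, and their median domain was 255 kb. A boundary lay in the gene body of 6 of the 19, against 0 of 5 markers and 15.9% of coding genes. Gene length was not matched, and the marker genes span 2144 to 49114 bp. The nearer boundary was on the 5′ side in 10 of the 19, against 5 of 5 markers and 51.7% of coding genes. The stronger flanking boundary was on the 5′ side in 16 of the 19, against 3 of 5 markers and 51.5% of coding genes. It was so in 7 of 14 immature neuron genes and in 4 of 8 genes marking sustentacular and gland cells. For horizontal basal cells the count was 4 of 4, and for blood, immune and endothelial cells 1 of 5. A high count was thus not found in the mature neuron list alone. This measure was not planned and has no test. Immature neuron genes had a boundary at most 20 kb from the TSS in 1 of 14 cases, Stmn2 (Weak, 0.412), and their median distance was 70 kb. Genes marking other cells that a sort could include had one in 3 of 8 cases for sustentacular and gland cells, 0 of 4 for horizontal basal cells and 4 of 5 for blood, immune and endothelial cells. The last count includes C1qa and C1qb, which share 1 boundary. Of all coding genes, 21.2% had a boundary that near. With 4 to 14 genes per list and no test, these counts do not set 1 cell type apart from another.

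Among the relatives of the markers, all 3 vesicular glutamate transporter genes can be set side by side. Slc17a6 was 20 kb from a boundary of 2.68, Slc17a8, which encodes VGLUT3, was 20 kb from one of 0.612, and Slc17a7 was 40 kb from one of 0.235. Of the 8 other genes of the SLC17 family, 2 had a boundary within 20 kb, Slc17a8 and Slc17a4 (Weak, 0.304). The S100 family had 1 of 16 other members with one, S100a11 (Strong, 0.531), and the stomatin family 0 of 4. The share over all coding genes was 21.2%. The 5′ boundary was the nearer in 6 of these 8 SLC17, 12 of 16 S100 and 3 of 4 stomatin genes. Over all coding genes that share was 51.7%. The 5′ boundary was also the nearer in 8 of 14 immature neuron genes and 4 of 8 sustentacular and gland markers. For horizontal basal markers it was 2 of 4, and for blood, immune and endothelial markers 2 of 5. Of the S100 family, 12 genes share a domain, as do Slc17a1, Slc17a2, Slc17a3 and Slc17a4 on chromosome 13, so these are not independent places. Of the 16 other S100 members, 11 lie in the domain of S100a5 and have the same flanking boundaries as that marker.

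The coding genes most like each marker, outside its own domain, were found by the summed difference in percentile over 4 measures. The measures were the distances to the 5′ and 3′ boundaries and the strengths of both, across 21538 genes with a boundary on each side. Genes sharing the marker's domain, which have the same 2 flanking boundaries, were left out, and the 2 most alike of the rest are named. For Omp these were Esr2 (sum 7.25 percentile points) and App (8.12), for Gfy Pwwp2b (5.68) and Il34 (8.86), and for Stoml3 Slc35a5 (5.56) and Wipf1 (8.64). Those of S100a5 were Taar7a (9.95) and Smurf1 (10.9), and those of Slc17a6 were Uqcrc2 (9.59) and Gm11808 (11.5). Uqcrc2 had a 5′ boundary of strength 2.88 at 10 kb and a 3′ boundary of 0.681 at 185 kb. These are likenesses of position in 1 map.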

How the data were processed

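In situ Hi-C was made from 2 biological replicates of 1 group. Per the series design text, contacts of the 2 replicates were merged before the authors derived boundaries, and the build was GRCm38. The deposited boundary strength is a score, with scale, caller and window not given in the sources used here. From the values, Weak covers 0.2 to 0.5 and Strong higher scores. Contact depth is unknown, because contact matrices were not analysed here.

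From this list, boundary bins of 5 kb were set against GENCODE release 21 genes and the GRCm38.p6 sequence with Python 3.11.15, numpy 2.4.6 and pandas 2.3.3. Domains, 8038 in all, ran between adjacent boundary bins, and 41 with over 50 kb of undetermined bases were left out of their medians and percentiles. CTCF core matches were exact, 14 bases, on either strand, as were promoter motifs. Distances and matches were tested on simulated data. The members and lists were chosen with earlier results of these data known. Named genes were the nearest coding neighbours, those nearest each flanking boundary, the 2 most alike per marker outside its domain and up to 3 per list. All other genes named were chosen after their values were seen. What 1 flanking boundary overlaps is not reported here.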

Additional observations from a re-analysis of the deposited data

How the results depend on the processing

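No paired analysis was possible because both replicates were merged before boundaries were called, and for the same reason no replicate could be left out. The number of markers with a boundary near the TSS was 1 within 20 kb, 0 within 10 kb, 3 within 50 kb (adding Gfy and Stoml3) and 4 within 100 kb (adding Omp). Slc17a6 lies exactly at the 20 kb limit. It was the 1 marker counted with Strong boundaries only, the top 25% of strengths, principal transcript starts or distances from the gene body. Among all coding genes, the number was 4609 (21.2%) within 20 kb, 2789 (12.8%) within 10 kb, 9763 (44.9%) within 50 kb and 15993 (73.5%) within 100 kb. Within 20 kb it was 2986 (13.7%) with Strong boundaries only, 1532 (7.04%) with the top 25% and 7605 (35%) from the gene body. The markers' median distance to a boundary stayed at 45 kb in the 3 settings of class and start site and was 42.5 to 50 kb with each marker left out in turn. For all coding genes it was 60 kb, 100 kb with Strong boundaries only and 250 kb with the top 25%. The steady median was the value of Stoml3. Omp moved from 55 kb to 245 kb with Strong boundaries only and 430 kb with the top 25%, and S100a5 from 135 to 185 kb with the top 25%. The markers' median domain was 440 kb between Strong boundaries and 1215 kb between the top 25%, against 475 and 1185 kb for all coding genes. It was 247.5 to 290.0 kb with each marker left out. The Gfy domain, the smallest at 90 kb, was the largest of the 5 in both settings, at 715 and 1970 kb. Fewer boundaries make larger domains by construction. Of the 10 flanking boundaries, 4 had an exact CTCF core match within 50 kb, against 33.4% of all boundaries, and 9 had one within 20 kb with 1 mismatch allowed, against 76.3%. Contact depth is unknown, and its part in which boundaries were called was not tested.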
